A study of Mus musculus with 9 samples.

Results

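Transcript levels of 31 genes of meiotic prophase were examined in mouse spermatogonia sorted for expression of an Id4 reporter. Whether all of the sorted cells were still before meiosis was not tested. The 31 genes were taken by symbol from a table of 23813 entries, and each was found on a single entry. They encode 6 proteins of the synaptonemal complex, 6 meiotic cohesin and chromosome axis proteins, 4 proteins of break formation, 6 of strand exchange, 6 of crossover formation and 3 further germ cell proteins named for testis expression. The list was set by gene function, with earlier results of these data known, and no level measured here entered the rule.

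The libraries came from 3 sorted populations of male pups at postnatal day 6, all of the LT-11B6 line, which carries an Id4-eGfp transgene on a C57BL/6 background. TSPAN8-high was the 1/3 of ID4-EGFP+ cells that an antibody to the tetraspanin TSPAN8 stained most strongly (3 libraries), TSPAN8-low was the 1/3 stained most weakly (3 libraries), and all ID4-EGFP+ cells were sorted on EGFP without a TSPAN8 gate (3 libraries). The EGFP reporter is driven by sequences of Id4, whose product marks the stem cell end of the spermatogonial population, so germ cells without the reporter were not sampled. The libraries of a group are separate preparations per the labels. The sources used here do not say whether the animals or litters differed, so the p-values measure the spread between preparations.

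Levels are Cufflinks FPKM, which is scaled by transcript length and by the fragments of each library, so that genes can be set beside each other. The absolute depth is unknown. Depth relative to all ID4-EGFP+ replicate 1 was estimated from entries with very low FPKM. It was 1.01 to 1.05 in TSPAN8-high, 0.856 to 0.945 in TSPAN8-low, and 1.03 and 0.914 in all ID4-EGFP+ replicates 2 and 3. The TSPAN8-low libraries were thus estimated to be the shallower of the fractions. In each library 10734 to 11155 entries reached 1 FPKM. The germ cell genes Dazl and Ddx4 stood at 1150 to 1850 and 347 to 652 FPKM across the 9 libraries. Id4 had 58.9 to 71.6 FPKM in TSPAN8-high, 17.7 to 33.9 in TSPAN8-low and 30.6 to 38.2 in all ID4-EGFP+. Gfra1, Zbtb16 and Etv5, further genes of undifferentiated spermatogonia, averaged 18.2, 8.19 and 27.1 FPKM in TSPAN8-high. In TSPAN8-low they averaged 6.77, 5.14 and 11.3. The defining Sertoli cell genes Sox9, Wt1, Gata4 and Amh were below 1 FPKM in every library. Other Sertoli cell genes were present, and the summed FPKM of the 11 listed Sertoli genes in the table was 88.1, 98.5 and 209 in TSPAN8-high replicates 1 to 3, 12.8, 21.9 and 126 in TSPAN8-low and 20.1, 44.4 and 99.1 in all ID4-EGFP+. Within each replicate number the sum of TSPAN8-high exceeded that of TSPAN8-low, and it was highest in replicate 3 of every group.

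In meiotic prophase, chromosomes are reorganised onto a protein axis built on cohesin complexes with meiosis-specific subunits, broken by the Spo11 nuclease, and repaired from the homologous chromosome by recombinases of which Dmc1 acts in meiosis alone. The synaptonemal complex then joins the axes of the homologues along their length, and a subset of the repair intermediates becomes crossovers. In the mouse testis these events belong to spermatocytes, which arise from spermatogonia after the response to retinoic acid that switches on Stra8. RNA was measured here, not protein, and a transcript present in a sorted population can come from many cells at a low level or from few at a high level. Fewer cells of a type and less RNA per cell cannot be told apart in such libraries.

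In mouse, promoters of many germline genes hold the E-box CACGTG, a word bound by MGA with MAX, or the word GCGGGAA, which reads as TTCCCGC on the opposite strand and is bound by E2F6, and repressors recruited there keep the genes silent in somatic cells. RefSeq windows of GRCm38.p6 that run from 250 bases before to 50 after a transcript's start were available for 26 of the 31 genes (30 windows). The 5 genes with both words in 1 window include 3 of the 4 most abundant genes of the set, and their windows are printed 5′ to 3′ on the strand of the gene, with each match in capitals. The window of Rec8, one of the genes with neither word, follows for comparison. Abundant genes are also among those without a match: Tex101, Syce1 and Psmc3ip, which averaged 415.7, 170.2 and 100.7 FPKM in all ID4-EGFP+, hold neither word in their windows.
Sycp3 (chr10:88459337-88459636, plus strand): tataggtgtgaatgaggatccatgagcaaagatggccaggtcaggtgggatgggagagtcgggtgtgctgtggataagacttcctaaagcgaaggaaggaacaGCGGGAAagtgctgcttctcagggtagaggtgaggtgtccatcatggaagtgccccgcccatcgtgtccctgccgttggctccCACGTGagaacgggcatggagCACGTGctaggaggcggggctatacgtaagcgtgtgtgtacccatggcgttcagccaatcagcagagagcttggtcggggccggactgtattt
Syce2 (chr8:84872008-84872307, plus strand, the second of its windows): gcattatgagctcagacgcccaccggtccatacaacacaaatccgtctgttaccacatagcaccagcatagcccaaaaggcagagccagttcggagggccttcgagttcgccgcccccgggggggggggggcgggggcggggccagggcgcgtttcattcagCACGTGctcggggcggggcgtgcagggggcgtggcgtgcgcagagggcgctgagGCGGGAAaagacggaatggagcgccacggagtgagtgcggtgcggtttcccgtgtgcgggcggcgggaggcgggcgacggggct
Tex12 (chr9:50561219-50561518, minus strand): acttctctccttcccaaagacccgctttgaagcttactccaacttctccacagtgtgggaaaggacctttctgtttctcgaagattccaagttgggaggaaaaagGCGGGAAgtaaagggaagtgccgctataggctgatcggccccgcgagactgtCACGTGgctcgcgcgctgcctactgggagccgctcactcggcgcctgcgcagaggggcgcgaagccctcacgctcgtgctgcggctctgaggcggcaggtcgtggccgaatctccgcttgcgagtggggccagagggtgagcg
Hormad1 (chr3:95559427-95559726, plus strand, the first of its windows): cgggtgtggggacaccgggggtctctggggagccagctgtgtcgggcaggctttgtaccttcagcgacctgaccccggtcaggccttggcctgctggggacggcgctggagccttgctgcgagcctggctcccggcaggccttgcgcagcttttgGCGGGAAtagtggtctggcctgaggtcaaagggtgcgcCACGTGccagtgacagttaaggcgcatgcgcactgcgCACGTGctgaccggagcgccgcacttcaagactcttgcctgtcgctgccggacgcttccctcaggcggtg
Stag3 (chr5:138280259-138280558, plus strand): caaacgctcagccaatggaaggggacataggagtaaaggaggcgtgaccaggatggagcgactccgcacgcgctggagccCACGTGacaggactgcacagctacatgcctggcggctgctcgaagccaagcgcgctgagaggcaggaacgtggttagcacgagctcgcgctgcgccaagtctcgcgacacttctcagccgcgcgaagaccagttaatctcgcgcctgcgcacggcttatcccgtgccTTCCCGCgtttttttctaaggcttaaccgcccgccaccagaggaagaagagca
Rec8 (chr14:55617916-55618215, plus strand): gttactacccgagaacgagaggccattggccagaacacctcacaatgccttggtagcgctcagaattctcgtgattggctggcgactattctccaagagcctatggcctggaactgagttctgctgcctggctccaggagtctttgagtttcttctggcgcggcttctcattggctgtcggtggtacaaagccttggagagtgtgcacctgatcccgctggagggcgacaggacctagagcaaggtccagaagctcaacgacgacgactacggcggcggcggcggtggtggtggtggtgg

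In Sycp3 the E-box matches begin 64 and 43 bases before the start site, and in Hormad1 57 and 20 bases before it. Stag3 has its E-box match 170 bases before the start. In the second Syce2 window it begins 88 bases before the start, and in Tex12 93 bases before it. No matches to the words share bases in these windows. Of the 26 genes, 6 (23.1%) held CACGTG in at least 1 window, compared with 8.09% of 27025 genes with a window and 12.7% of the 8335 tested genes with one. GCGGGAA on either strand was present in 10 of the 26 (38.5%), compared with 5.29% of all genes and 10.5% of tested genes. At least 1 of both words was present in 11 (42.3%), compared with 12.8% and 21.8%. The median GC content of the windows was 60.2% in the set, 52.7% in all genes and 61.0% in tested genes. A match describes letters and does not show that a protein binds there. The other 6 genes with a match were Sycp1, which has an E-box, and Smc1b, Prdm9, Hsf2bp, Msh5 and Tex14, which have the E2F6 word.

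Nearly all of these genes were already represented in the RNA of ID4-EGFP+ cells. In all ID4-EGFP+, 30 of the 31 (96.8%) reached 1 FPKM in each of the 3 libraries, a level that 44.6% of 23022 entries reached. Prdm9 was the exception, with 0.904, 1.54 and 1.05 FPKM, and Mei1 lay just inside the limit with 1.27, 1.57 and 1.20. For comparison, 93.7% of 1095 olfactory receptor genes were listed at 0 in all 3 libraries, 1 of them reached 1 FPKM in each, and the 99th percentile of their mean was 0.149 FPKM. At a limit of 5 FPKM, 21 of the 31 genes were still counted.

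The levels spread widely. In all ID4-EGFP+, 9 genes averaged at least 100 FPKM, 10 lay between 10 and 100 and 12 lay under 10, of which 5 were under 2 FPKM. The highest mean was 704 times the lowest. The middle gene of the set was above 85.0% of the entries, and 8 genes (25.8%) reached 100 FPKM in each library, which 5.5% of entries did. Replicate libraries differed more for some genes than for others: the coefficient of variation was 5.06% for Msh5 and 57.5% for Rad21l, the lowest and the highest.

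**Figure D1:**
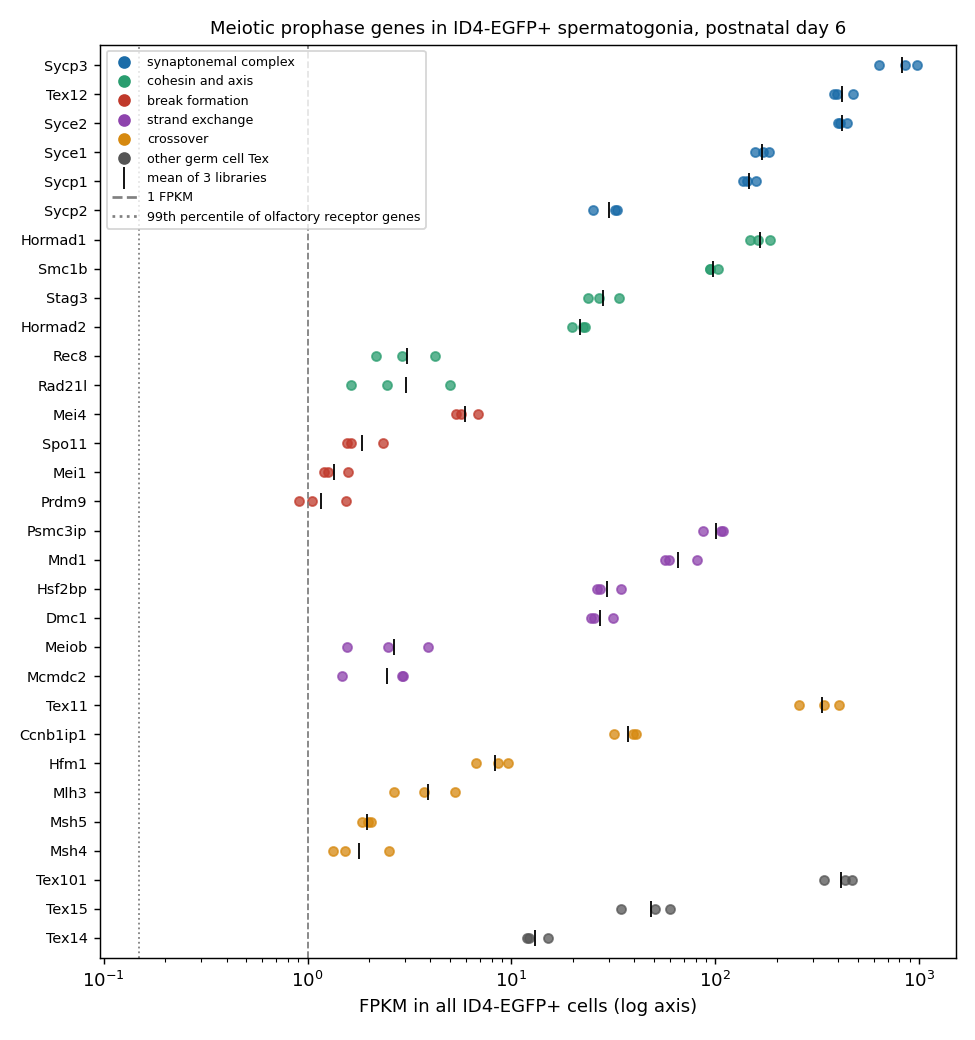
FPKM of the 31 genes in the 3 libraries of all ID4-EGFP+ cells (points, log axis), grouped by role, with the mean of each gene as a bar. Synaptonemal complex genes lie between 30.0 and 820.0 FPKM on average and break formation genes between 1.17 and 5.94, and every point except 1 of Prdm9 lies to the right of the 1 FPKM line.

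Synaptonemal complex genes were the most abundant class. Their means in all ID4-EGFP+ ran from 30.0 to 820.0 FPKM, and all but Sycp2 averaged over 100. Sycp3, which encodes a filament protein of the lateral elements, had 972.7, 632.5 and 854.8 FPKM and stood above 99.1% of entries. Syce2 and Tex12, whose products form a complex in the central element, had 444.0, 400.5 and 409.6 FPKM (Syce2) and 476.0, 381.7 and 396.5 FPKM (Tex12). Both partners therefore averaged 418 FPKM, and their ratio within a library of all ID4-EGFP+ was 0.933 to 1.05. Syce1, a further central element gene, averaged 170.2 ± 13.4 FPKM and Sycp1, the gene of the transverse filament, 146.0 ± 11.1 (SD, n = 3 each). Sycp2, whose product forms the lateral elements with that of Sycp3, was the lowest at 30.0 ± 4.25 FPKM. Reads of Sycp1 may be shared with the pseudogene Sycp1-ps1, which is 92.4% identical over 2560 bases in GENCODE M21.

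The cohesin and axis genes were unequal. Smc1b, the meiotic partner of the cohesin gene Smc3, averaged 97.1 ± 5.15 FPKM, and Hormad1, which encodes an axis protein that marks unsynapsed chromosomes, 165.1 ± 19.9. Stag3, a meiotic cohesin subunit gene, averaged 28.2 ± 5.18 and Hormad2, the relative of Hormad1, 21.8 ± 1.67. The genes of the meiotic kleisins, the subunits that close the cohesin ring, were much lower: Rec8 had 2.15, 4.22 and 2.90 FPKM and Rad21l had 2.46, 4.99 and 1.64. Parts of Hormad1 occur in the processed pseudogenes Gm15529 (97.9% identity over 994 bases) and Gm7167 (92.3% over 1188 bases), so its level is uncertain to the extent that reads were divided among them.

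Set against their mitotic counterparts within each library, the meiotic cohesin genes again split. Smc1b exceeded Smc1a in 9 of 9 libraries, by 7.23 to 14.0 times in TSPAN8-high, 12.6 to 20.5 times in TSPAN8-low and 5.85 to 11.2 times in all ID4-EGFP+. Stag3 exceeded Stag2 in 8 libraries and Stag1 in 2. Rec8 and Rad21l were below the mitotic kleisin gene Rad21 in all 9, at 0.0136 to 0.0954 and 0.0283 to 0.113 of its level. These pairs were chosen after the levels were seen and are given as a description.

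Genes of break formation were the lowest class, and all 4 averaged under 10 FPKM. Spo11, which encodes the nuclease itself, had 2.33, 1.56 and 1.63 FPKM in all ID4-EGFP+. Mei4, whose product is needed for breaks, was the highest of them with 6.84, 5.33 and 5.66, and Mei1, also needed for breaks, averaged 1.35 ± 0.198. Prdm9, which encodes the histone methyltransferase that places the break sites, averaged 1.17 ± 0.336, the lowest of the 31 genes.

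In the strand exchange group, Psmc3ip and Mnd1, whose products form the complex that assists Dmc1, averaged 100.7 ± 11.7 and 65.7 ± 13.3 FPKM. Hsf2bp, which encodes a partner of BRCA2, averaged 29.3 ± 4.49 and Dmc1 27.2 ± 3.74. Meiob, which encodes a single-strand DNA binding protein, had 2.48, 3.90 and 1.56 FPKM and Mcmdc2, a relative of the MCM helicases, 2.91, 2.94 and 1.48. Mnd1 has the near copy Mnd1-ps (97.1% identity over 824 bases), and 21.2% of the exon bases of Psmc3ip lie opposite those of Mlx, so these levels may hold reads of the other gene. In Mcmdc2, 127 of 5916 exon bases (2.15%) lie opposite the noncoding gene Snhg6, which had 157 to 203 FPKM in TSPAN8-high, 154 to 213 in TSPAN8-low and 155 to 219 in all ID4-EGFP+. Stretches of 203 to 374 bases of Mcmdc2 also match transcripts of 41 other genes at an identity of up to 94.2%, so its level is uncertain.

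The crossover group covered the widest range, with a highest mean 187 times the lowest. Tex11, an X-linked gene whose product acts in crossover formation, had 343.2, 403.2 and 256.6 FPKM, above 97.8% of entries. Ccnb1ip1, the gene of a ring finger protein needed for crossovers, averaged 37.4 ± 4.93, with 12.4% of its exon bases shared with Rpph1 on the same strand. Hfm1, a helicase gene, averaged 8.30 ± 1.45 and Mlh3, which encodes a mismatch repair protein of crossover resolution, 3.90 ± 1.32. Msh5 and Msh4, whose products form a complex that stabilises recombination intermediates, averaged 1.96 ± 0.0991 and 1.79 ± 0.632. Of the remaining genes, Tex101, which encodes a germ cell surface protein, averaged 415.7 ± 66.3 FPKM, Tex15, needed for meiotic recombination and for silencing of transposons, 48.2 ± 12.9 and Tex14, needed for the bridges between germ cells, 13.0 ± 1.76.

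Germ cells beyond the spermatogonial stage were looked for with a list of 17 genes chosen for spermatocytes or spermatids. Of these, 11 stayed at or below 1 FPKM in all 9 libraries. They include Cntn5 (up to 0.0399 FPKM), whose use by such cells is not established here. Prm2, a protamine gene of spermatids, was listed at 0 in each, and Prm1 was listed at 0 in 8 libraries and at 0.459 FPKM in 1. Piwil1, a gene of pachytene spermatocytes, reached no more than 0.711 FPKM. The other 6 were present: Tnp1, a spermatid transition protein gene, ranged over 21.4 to 25.2 FPKM in TSPAN8-high, 11.1 to 16.0 in TSPAN8-low and 17.5 to 24.4 in all ID4-EGFP+, and Zpbp, a gene of the acrosome, over 5.81 to 9.56, 8.41 to 13.9 and 6.45 to 9.40 in the same groups. Ldhc, a lactate dehydrogenase gene of spermatocytes, reached 1.98 to 5.55 FPKM over the 9 libraries, Odf2, which encodes a protein of the sperm tail and of centrosomes, 6.48 to 16.6, Odf1, a further sperm tail gene, 1.26 to 2.48 and Pgk2, a glycolytic enzyme gene of germ cells, 0.277 to 2.67. Their part in the levels of the 31 genes was not tested.

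The fractions were compared to ask how these genes vary with surface TSPAN8 among ID4-EGFP+ cells. The set was centred near 0. Of the 31 genes, 16 had estimates above 0 and 15 below, fitted on log2(FPKM + 1), where changes of genes with low levels appear smaller than they are. The median log2 fold change, TSPAN8-high over TSPAN8-low, was 0.03 for the set and 0.05 for all 11130 tested genes. By the ratio of mean FPKM, 27 of the 31 genes lay within 1.5-fold. All 31 genes had passed the filter for testing, 1 FPKM in at least 3 of 9 libraries, with Prdm9 reaching that level in 4 libraries, Mei1 in 6 and Rec8 and Msh5 in 8. The Prdm9 libraries at that level were of TSPAN8-low and all ID4-EGFP+ and none was of TSPAN8-high. Its place in the test therefore depended on the groups where it was higher.

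In limma, 1 of the 31 genes was lower in TSPAN8-high at a Benjamini-Hochberg adjusted p under 0.05, a call that 2.15% of tested genes received, and none was higher, as 3.41% of tested genes were. At an unadjusted p under 0.05 in limma there were 4 lower (Sycp3, Syce2, Mei4 and Prdm9) and 1 higher (Hsf2bp). Of these, Prdm9 had entered the test only through the groups where it was higher. The share of all tested genes at that unadjusted limit is not given, here or below, so such counts have no background to be read against. Libraries with the same replicate number deviated together, and a limma fit with that number as a block called 3 genes lower, as 7.35% of tested genes were, and 2 higher, as 11.8% were. In both directions together the calls made up 3.23% of the set and 5.55% of tested genes without the block, and 16.1% of the set and 19.1% of tested genes with it, so the set was near the background in both fits.

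**Figure D2:**
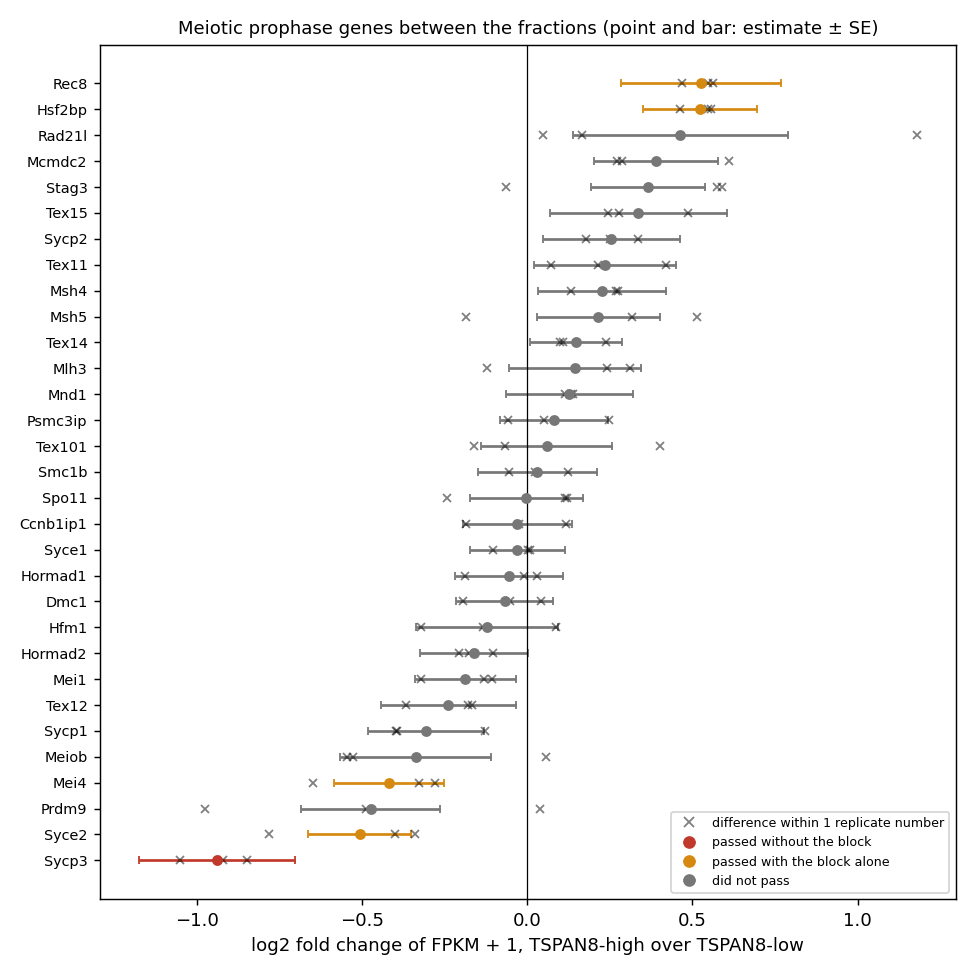
Log2 fold change of FPKM + 1 of each of the 31 genes, TSPAN8-high over TSPAN8-low, with the limma estimate as a point, its SE as a bar and the difference within each replicate number as a cross. Sycp3 lies lowest at -0.94, Rec8 and Hsf2bp highest at 0.52, and the genes lie on both sides of 0.

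Sycp3 was the gene that passed. It had 877.5, 699.5 and 500.2 FPKM in TSPAN8-high replicates 1 to 3, 1579, 1323 and 1036 in TSPAN8-low and 972.7, 632.5 and 854.8 in all ID4-EGFP+. Every TSPAN8-high library was below every TSPAN8-low library, 2 of the all ID4-EGFP+ libraries lay within the range of TSPAN8-high, and replicate 1 lay between the fractions. The means were 692.4 ± 189 and 1313 ± 271 FPKM (SD, n = 3 each), a ratio of 0.527. In limma the log2 fold change was -0.94 (SE 0.24, adjusted p = 0.0400; with the block, adjusted p = 0.00237), with the same direction in 3 of 3 replicate numbers (-0.85, -0.92 and -1.05).

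The Sycp3 call without the block was close to the threshold. In limma fits that left out a library or a replicate number it was lost in 8 of 12: without TSPAN8-high replicate 2 (adjusted p = 0.110) or 3 (0.142), TSPAN8-low replicate 1 (0.116) or 2 (0.102), all ID4-EGFP+ replicate 3 (0.0532), and without number 1 (0.0544), 2 (0.231) or 3 (0.127) in all groups. It was also lost without the filter on low values (0.113) and under 3 other scalings (0.0752 to 0.107), while with the block it passed in all 12 such fits (adjusted p up to 0.0193). In GENCODE M21, 660 of the 1264 exon bases of Sycp3 (52.2%) lie opposite exons of Chpt1, an enzyme gene of phospholipid synthesis, and the library kit does not mark strand. Chpt1 had 86.2 to 107 FPKM in TSPAN8-high, 121 to 159 in TSPAN8-low and 102 to 133 in all ID4-EGFP+ (fractions: limma log2 fold change -0.55, adjusted p = 0.0680, with the block 0.00390). The Sycp3 level was 5.8 to 11.0 times that of Chpt1 in each library, and the part of shared reads in the Sycp3 difference was not tested.

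Syce2 had the next lowest estimate on the log2(FPKM + 1) scale. By the ratio of mean FPKM the order differed, with 0.509 for Prdm9, 0.527 for Sycp3 and 0.710 for Syce2. It had 419.7, 357.9 and 292.0 FPKM in TSPAN8-high, against 531.7, 472.5 and 502.0 in TSPAN8-low and 444.0, 400.5 and 409.6 in all ID4-EGFP+. The fractions did not overlap, replicate 1 of all ID4-EGFP+ lay between them, and its other libraries lay within the range of TSPAN8-high. In limma the log2 fold change was -0.51 (SE 0.16), which passed with the block (adjusted p = 0.0119) and not without it (adjusted p = 0.0804).

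Other synaptonemal complex genes moved unequally. Estimates were below 0 for 5 of the 6 genes, with a median of -0.27, but that of Syce1 was near 0 (-0.03, SE 0.14). The share of all tested genes with estimates below 0 is not given. Sycp3, Syce2, Tex12 and Sycp1 were lower in TSPAN8-high within all 3 replicate numbers, as 22% of all tested genes were. Tex12 had 610.8, 466.6 and 390.3 FPKM in TSPAN8-high and 686.0, 602.4 and 442.4 in TSPAN8-low, and Sycp1 had 138.8, 163.1 and 126.5 in TSPAN8-high and 182.7, 214.9 and 138.3 in TSPAN8-low. These ranges overlapped, and neither gene passed (limma adjusted p = 0.527 for Tex12 and 0.335 for Sycp1). Sycp2 had the opposite sign in all 3 replicate numbers, with 51.6, 37.6 and 30.9 FPKM in TSPAN8-high and 40.7, 31.5 and 27.2 in TSPAN8-low (log2 fold change 0.25, limma adjusted p = 0.506). Syce1 averaged 163.9 ± 19.0 FPKM in TSPAN8-high, against 166.9 ± 12.7 in TSPAN8-low.

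The ratio of the lateral element genes within a library followed from this. Sycp3 was 17.0, 18.6 and 16.2 times Sycp2 in TSPAN8-high, 38.8, 42.1 and 38.2 times in TSPAN8-low and 30.3, 19.3 and 34.0 times in all ID4-EGFP+. The 3 values within each fraction were close together and the fractions did not overlap, in a pair whose estimates had opposite signs. Sycp3 over Syce1 varied more, at 2.78 to 6.14 in TSPAN8-high and 5.80 to 10.3 in TSPAN8-low, and these ranges overlapped. The ratio of the central element partners, Syce2 over Tex12, was 0.687 to 0.767 in TSPAN8-high, 0.775 to 1.13 in TSPAN8-low and 0.933 to 1.05 in all ID4-EGFP+. These ratios, and others not printed here, were computed after the levels were seen.

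**Figure D3:**
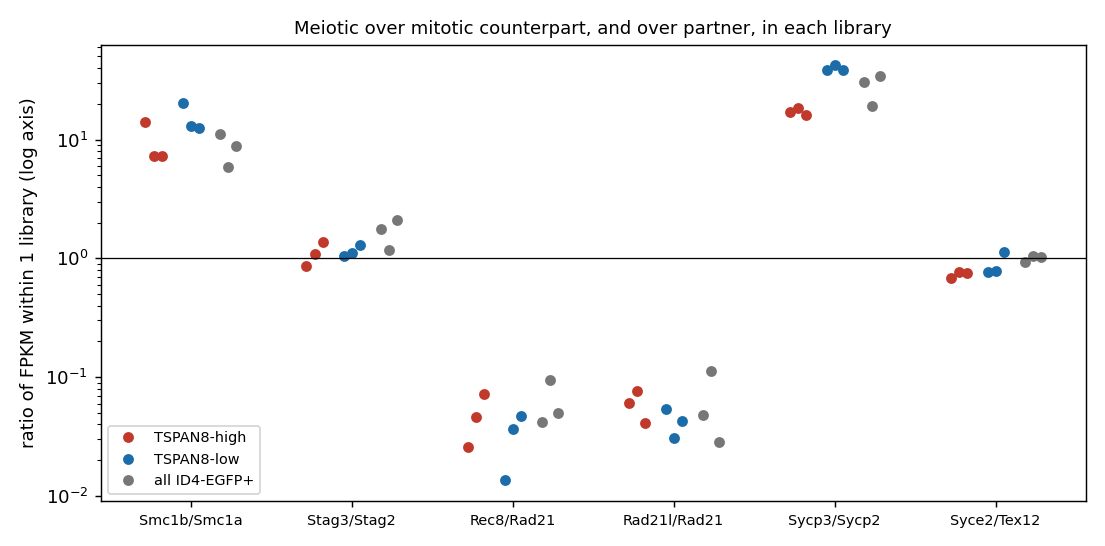
Ratio of FPKM within each library (log axis) for meiotic genes over their mitotic counterparts and for partners of the synaptonemal complex, in TSPAN8-high (left in each set), TSPAN8-low (middle) and all ID4-EGFP+ (right). Smc1b exceeds Smc1a in all 9 libraries, Rec8 and Rad21l stay below Rad21, and Sycp3 over Sycp2 is 16.2 to 18.6 in TSPAN8-high and 38.2 to 42.1 in TSPAN8-low.

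Among the break formation genes, Prdm9, Mei4 and Mei1 had estimates of -0.47, -0.42 and -0.19, and Spo11 was at 0 within its error (-0.0025, SE 0.17). None passed without the block, and the share of all tested genes with estimates below 0 is not given. Mei1 averaged 0.920 ± 0.158 FPKM in TSPAN8-high, against 1.20 ± 0.355 in TSPAN8-low. Mei4 had 6.64, 4.84 and 4.90 FPKM in TSPAN8-high and 8.27, 6.33 and 8.25 in TSPAN8-low. It was lower in TSPAN8-high within each replicate number, although the fractions overlapped through TSPAN8-high replicate 1 and TSPAN8-low replicate 2. Its log2 fold change was -0.42 (SE 0.17), with a limma adjusted p of 0.170 without the block and 0.0370 with it. Prdm9 had 0.468, 0.991 and 0.783 FPKM in TSPAN8-high and 1.88, 1.79 and 0.734 in TSPAN8-low, overlapping through replicate 3 of TSPAN8-low, and did not pass in either fit (adjusted p = 0.207, and 0.0853 with the block). Spo11 averaged 1.89 ± 0.150 FPKM in TSPAN8-high, against 1.93 ± 0.597 in TSPAN8-low.

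Rec8 and Hsf2bp were higher in TSPAN8-high in the fit with the block. Rec8 had 1.80, 2.68 and 3.61 FPKM in TSPAN8-high, against 0.916, 1.66 and 2.12 in TSPAN8-low and 2.15, 4.22 and 2.90 in all ID4-EGFP+. Its fractions overlapped, since TSPAN8-low replicate 3 exceeded TSPAN8-high replicate 1, and the difference was 0.47 to 0.56 on the log2 scale within each number (log2 fold change 0.52, SE 0.24, limma adjusted p = 0.229 without the block and 0.0361 with it). Hsf2bp had 29.2, 35.7 and 38.2 FPKM in TSPAN8-high, against 19.6, 24.0 and 27.4 in TSPAN8-low and 26.3, 27.2 and 34.5 in all ID4-EGFP+. Its fractions did not overlap (log2 fold change 0.52, SE 0.17, limma adjusted p = 0.103 without the block and 0.00740 with it). In limma fits with the block that left out a library or a replicate number, the Rec8 call was lost in 8 of 12, at adjusted p of up to 0.176, and passed only without TSPAN8-high replicate 2 or any single all ID4-EGFP+ library. With the block it also missed the threshold with a common median (adjusted p = 0.0572 in limma) and in the authors' normalized table (0.0760). The Mei4 call was lost in 9 of 12, at adjusted p of up to 0.271, and passed only without TSPAN8-low replicate 1 or all ID4-EGFP+ replicate 1 or 2. For Hsf2bp the fits that did not pass left out TSPAN8-high replicate 2 (adjusted p = 0.0595) or number 2 (0.0585) or 3 (0.0521) in all groups. The Syce2 call was lost without replicate 3 of TSPAN8-high (adjusted p = 0.0865), of TSPAN8-low (0.0621) or of all groups (0.139).

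**Figure D4:**
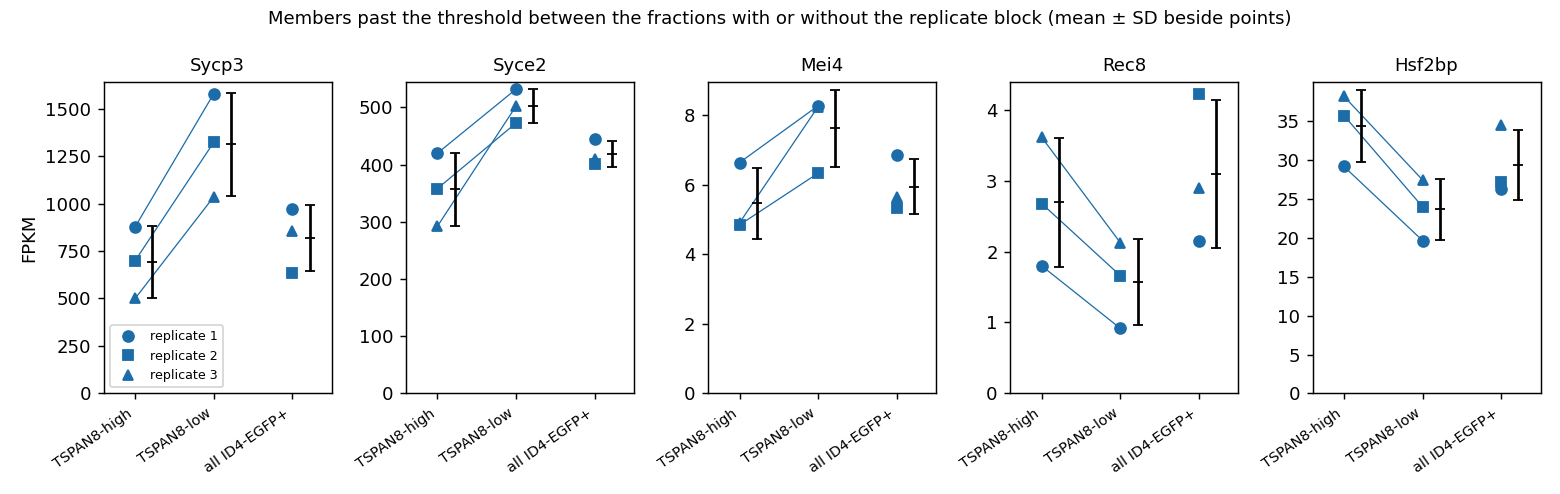
FPKM of the 5 genes that passed in limma with the replicate block, by group, with libraries of the same replicate number of the 2 fractions joined by a line and the mean ± SD (n = 3) beside the points. All lines of Sycp3, Syce2 and Mei4 run to a higher value in TSPAN8-low, and all lines of Rec8 and Hsf2bp to a lower one.

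The other cohesin and axis genes did not pass in either fit. Stag3 had 23.2, 28.6 and 29.1 FPKM in TSPAN8-high and 24.3, 18.7 and 19.2 in TSPAN8-low, with replicate 1 nearly equal. Rad21l differed by 1.18 on the log2 scale in replicate 2 and by 0.17 and 0.05 in the others. Smc1b (119.5 ± 19.9 FPKM in TSPAN8-high, 117.8 ± 26.8 in TSPAN8-low), Hormad1 (198.3 ± 32.1 in TSPAN8-high, 204.7 ± 18.2 in TSPAN8-low) and Hormad2 (19.9 ± 2.85 in TSPAN8-high, 22.4 ± 3.94 in TSPAN8-low) differed in mean by less than the SD of either group. The strand exchange genes Dmc1, Psmc3ip and Mnd1 lay within -0.07 to 0.13 on the log2 scale, and the SE of each was larger than its estimate. Meiob, of the same group, had 2.23, 3.05 and 1.65 FPKM in TSPAN8-high and 3.65, 2.89 and 2.87 in TSPAN8-low. Its log2 fold change was -0.34 (SE 0.23, limma adjusted p = 0.416), and it did not pass in either fit.

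The Mcmdc2 and Tex14 entries were higher in every TSPAN8-high library than in any TSPAN8-low library without passing. Mcmdc2 had 4.65, 4.21 and 3.61 FPKM in TSPAN8-high and 2.70, 3.27 and 2.82 in TSPAN8-low (limma adjusted p = 0.250), a level that may hold reads of Snhg6, whose own log2 fold change was -0.01. Tex14 had 12.8, 12.6 and 12.7 FPKM in TSPAN8-high and 11.8, 11.7 and 10.6 in TSPAN8-low (limma adjusted p = 0.571). With Hsf2bp, 3 of the 31 genes were higher without overlap, against 15.8% of tested genes, and with Sycp3 and Syce2 2 were lower without overlap, against 9.72%. A difference of the same sign in all 3 replicate numbers was seen in 10 genes higher (31.4% of tested genes) and 7 lower (22% of tested genes).

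No crossover gene passed in either fit, nor did Tex14, Tex15 or Tex101. Tex11 had 504.5, 457.4 and 361.3 FPKM in TSPAN8-high and 479.6, 341.8 and 311.2 in TSPAN8-low, higher in TSPAN8-high within each number by 0.07 to 0.42 on the log2 scale (limma adjusted p = 0.550). Msh4 averaged 2.38 ± 0.609 FPKM in TSPAN8-high, against 1.88 ± 0.386 in TSPAN8-low, and Ccnb1ip1 41.3 ± 4.56 in TSPAN8-high and 42.4 ± 6.46 in TSPAN8-low. The log2 fold change was 0.14 (SE 0.20) for Mlh3, 0.22 (SE 0.19) for Msh5 and -0.12 (SE 0.21) for Hfm1. Tex101 had 419.4, 385.5 and 477.0 FPKM in TSPAN8-high and 316.9, 403.7 and 532.9 in TSPAN8-low, with the sign of its difference changing between replicate numbers. Tex15 averaged 63.1 ± 18.0 FPKM in TSPAN8-high, against 50.2 ± 17.2 in TSPAN8-low.

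No gene of the set passed between either fraction and all ID4-EGFP+. TSPAN8-high against all ID4-EGFP+ gave no call in limma among the 31 (1 at an unadjusted p under 0.05) and 16 among all tested genes (0.144%), and with the block none of the 31 and 3.09% of tested genes. TSPAN8-low against all ID4-EGFP+ gave no call among the 31 (4 at an unadjusted p under 0.05) or among all tested genes (0%), and with the block none of the 31 and 0.0449% of tested genes. Both comparisons share the all ID4-EGFP+ libraries, and the share of all tested genes at the unadjusted limit is not given for them. For Sycp3 the log2 fold change was -0.26 for TSPAN8-high over all ID4-EGFP+ and 0.68 for TSPAN8-low over all ID4-EGFP+, for Syce2 they were -0.24 and 0.26, and for Rec8 -0.15 and -0.67, in the same order.

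Regulators of meiotic entry were set beside the prophase genes. Of 11 tested genes on this list, 4 were lower in TSPAN8-high and 1 was higher in limma, calls that 2.15% and 3.41% of all tested genes received, and with the block 5 were lower (7.35% of tested genes) and 1 was higher (11.8%). Stra8, the retinoic acid target needed for meiosis, had 84.3, 81.9 and 107 FPKM in TSPAN8-high, against 202, 186 and 174 in TSPAN8-low and 159, 154 and 144 in all ID4-EGFP+ (log2 fold change -1.04, SE 0.15, adjusted p = 0.00382). The other lower genes were Dmrtb1 (-1.23, adjusted p = 0.00153), which acts at the switch between mitosis and meiosis, Sohlh1 (-0.69, adjusted p = 0.0195), a transcription factor gene of differentiating spermatogonia, and Kit (-1.38, adjusted p = 0.00264), their growth factor receptor gene. Levels of Dmrtb1 were low, at 0.51, 0.69 and 0.955 FPKM in TSPAN8-high and 3.44, 2.96 and 2.70 in TSPAN8-low. It passed the filter for testing only through TSPAN8-low and all ID4-EGFP+ libraries. Kit was also low, averaging 1.79 ± 0.293 FPKM in TSPAN8-high, against 6.35 ± 1.67 in TSPAN8-low. Nanos2, which represses meiosis in male germ cells, was higher at 11.3, 10.6 and 11.6 FPKM in TSPAN8-high, against 3.15, 4.45 and 5.56 in TSPAN8-low (1.20, adjusted p = 0.00604). Sohlh2, the partner of Sohlh1, averaged 61.6 ± 3.52 FPKM in TSPAN8-high, against 83.4 ± 10.8 in TSPAN8-low and was lower with the block alone (-0.43, limma adjusted p = 0.105 without it and 0.0277 with it). Of the prophase genes, Sycp3 and Syce2 alone were lower in each TSPAN8-high library than in any TSPAN8-low library, as 9.72% of tested genes were. The same held for the regulators Stra8, Dmrt1, Dmrtb1, Sohlh1, Sohlh2 and Kit. Smc1b, Hormad1 and Syce1 were among the prophase genes that overlapped between the fractions. Whether Sycp3 or Syce2 varied with Stra8 was not tested.

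A further list of 34 meiosis genes outside the set had 20 in the table, of which 18 were detected in all ID4-EGFP+ and 19 were tested. Meig1, a gene named for meiosis that is needed for sperm formation, was lower in TSPAN8-high, with 3.55, 3.68 and 2.82 FPKM against 9.93, 10.8 and 5.52 in TSPAN8-low (log2 fold change -1.12, limma adjusted p = 0.0144), and none was higher. With the block 2 were lower, Meig1 and the central element gene Syce3 (69.2, 75.2 and 92.4 FPKM in TSPAN8-high, against 86.4, 108 and 119 in TSPAN8-low, adjusted p = 0.0269). The 3 higher with the block were Zcwpw1, which encodes a histone reader of meiosis (0.38, limma adjusted p = 0.102 without the block and 0.0265 with it), Stk31, a germ cell gene with a Tudor domain (0.47, 0.124 and 0.0129 in that order), and 4930432K21Rik (0.50, 0.0855 and 0.0376). Among all tested genes, 2.15% were lower and 3.41% higher without the block, and 7.35% were lower and 11.8% higher with it.

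Of 18 tested genes that keep germline genes silent in other tissues, 2 were higher in limma and 1 lower (3.41% and 2.15% of all tested genes), and with the block 2 were higher and 2 lower (11.8% and 7.35%). Pcgf6, of the Polycomb complex that holds MGA and E2F6, averaged 66.2 ± 2.37 FPKM in TSPAN8-high, against 45.7 ± 4.25 in TSPAN8-low (0.53, adjusted p = 0.0426), Atf7ip, a cofactor of Setdb1, was higher by 0.66 (adjusted p = 0.0482), and Dnmt3b, a DNA methyltransferase gene, was lower (-0.67, adjusted p = 0.0458). Yaf2, of a Polycomb complex, averaged 43.0 ± 3.06 FPKM in TSPAN8-high, against 62.3 ± 6.83 in TSPAN8-low and was lower with the block alone (-0.52, limma adjusted p = 0.0763 without it and 0.0118 with it). Mga, Max and E2f6 averaged 15.2, 9.51 and 68.2 FPKM in all ID4-EGFP+ and were not called. Of the 12 mitotic counterparts listed here none was called without the block (3 higher at an unadjusted p under 0.05 in limma). Smc1a and Smc3 were higher with it, as 11.8% of all tested genes were. Of the 6 tested genes of later germ cells Tnp1 was higher in TSPAN8-high (0.72, limma adjusted p = 0.0320), as 3.41% of all tested genes were. With the block 3 of the 6 were higher, Tnp1, Pgk2 (0.75, adjusted p = 0.150 without the block and 0.00400 with it) and Ldhc (0.54, 0.123 and 0.0460), and Zpbp was lower (-0.46, 0.236 and 0.0172). Among all tested genes, 11.8% were higher and 7.35% lower with the block. Levels of Pgk2 were low, at 0.957, 0.277 and 0.516 FPKM in TSPAN8-low. Pgk2 passed the filter for testing only through TSPAN8-high and all ID4-EGFP+ libraries. Its place in the test, and so its call with the block, depended on the groups where it was higher.

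The Sertoli cell genes moved with the fractions as well. None of the 5 tested was called in limma without the block (5 higher in TSPAN8-high at an unadjusted p under 0.05), and with it all 5 were higher, Cst12, Cst9, Aard, Rhox8 and Clu (19.1, 24.2 and 60.6 FPKM in TSPAN8-high, against 2.38, 3.45 and 31.6 in TSPAN8-low). Among all tested genes, 11.8% were higher in TSPAN8-high with the block. Their part in the differences of the meiotic genes was not tested. The Sycp3 difference was -0.85, -0.92 and -1.05 in replicates 1, 2 and 3, in which the Sertoli sum was 88.1, 98.5 and 209 in TSPAN8-high and 12.8, 21.9 and 126 in TSPAN8-low.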

How the data were processed

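RNA sequencing libraries of 3 groups (TSPAN8-high, TSPAN8-low and all ID4-EGFP+, 3 each) were analysed. The labels' protocols name SMART-Seq v4 cDNA synthesis, a method that starts from poly(A) tails and keeps no strand information, and Nextera XT libraries. The submitters' processing notes list TopHat2 2.0.12, Bowtie2 2.2.3.0, Cufflinks and FastQC with the mm9 build, and the sources used here do not name an annotation. The authors deposited Cufflinks FPKM values per library, which were tested, and a table of normalized signal values, used only as an alternative.

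Symbols on more than 1 entry (262 symbols, 768 entries) and 27 entries that show a date were left out. Genes with at least 1 FPKM in at least 3 of 9 libraries (11130) were fitted with limma 3.58.1 (R 4.3.3, two-sided, with a trended prior variance) on log2(FPKM + 1), in 1 model of the 3 groups, with Benjamini-Hochberg adjustment over all of them and a threshold of 0.05. The procedure was tested on simulated data. The letters and number of each column name were matched to the population and number in a sample's title.

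Libraries share replicate numbers in the labels. After subtraction of group means, the 9 same-number pairs correlated across genes at 0.264 to 0.481 and the 18 other pairs at -0.455 to 0.277. The pairing was therefore taken from this pattern in the data, and the fit was repeated with the number as a block. Its values stand beside the results for the 31 genes and the gene lists that it changes.

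GENCODE M21 (GRCm38) gave names of overlapping exons and similar transcripts; since the build differs from mm9, no file coordinates are printed. Promoter windows are from RefSeq (GRCm38.p6) and were searched for CACGTG and for GCGGGAA or TTCCCGC. All 31 genes are accounted for, with full values for those past the threshold in either fit and for the most abundant; of other lists of germ and Sertoli cell genes, those past the threshold in either fit are named. The 31 genes and all lists and marker sets were chosen with earlier results of these data known, and the alternatives that combine the block with another setting were added after seeing the data. Peritubular and interstitial markers summed to 7.36 to 16.4 FPKM in TSPAN8-high, 3.34 to 12.0 in TSPAN8-low and 4.18 to 7.65 in all ID4-EGFP+; endothelial and blood markers to 13.3 to 15.8, 6.21 to 13.1 and 7.99 to 12.4; Leydig markers did not exceed 6.48 in any library.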

Additional observations from a re-analysis of the deposited data

How the results depend on the processing

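The call rate depended on the fit more than the estimates did. Of the 31 genes, 22 kept the sign of their log2 fold change between the fractions under all 22 alternatives and 9 changed it in at least 1, all of them near 0. With TPM scaling the estimates were 0.033 for Syce1, 0.0083 for Hormad1, 0.039 for Spo11 and 0.032 for Ccnb1ip1. With a common median they were -0.066 for Smc1b, -0.016 for Psmc3ip and -0.039 for Tex101, and with a pseudocount of 0.1 the estimate was 0.0067 for Spo11. When a library or replicate number was left out, estimates ran from -0.10 to 0.065 for Syce1, -0.12 to 0.20 for Smc1b, -0.13 to 0.086 for Hormad1, -0.093 to 0.16 for Spo11, -0.12 to 0.0048 for Dmc1, -0.015 to 0.19 for Psmc3ip, -0.26 to 0.094 for Hfm1, -0.16 to 0.054 for Ccnb1ip1 and -0.12 to 0.25 for Tex101.

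Between the fractions, 618 tested genes passed, against 2130 with the replicate block, 294 without a filter on low values and 10 to 632 when libraries were left out: 185 without TSPAN8-high replicate 2, 284 without its replicate 3, 364 and 288 without TSPAN8-low replicate 1 and 2, and 372, 10 and 90 without number 1, 2 and 3 in all groups. Among the 31 genes, the count lower was 0 with no filter, the authors' normalized table, quantile normalization or TPM, and 0 to 2 in the leave-outs; with the block it was 3 lower and 2 higher. With the block and a common median it was 3 lower and 1 higher, with the authors' normalized values 4 lower and 1 higher, with a pseudocount of 0.1 again 3 lower and 2 higher, and in leave-outs with the block 1 to 3 lower and 0 to 3 higher. Of all calls 61.3% were higher in TSPAN8-high, against 42.0% with the normalized table, 41.4% with a common median, 45.5% with quantile normalization and 74.2% with TPM. For TSPAN8-high against all ID4-EGFP+, the 16 calls became 0 with no filter, 8 with a filter on the mean, 7 with the normalized table, 344 with the block, 27 with the 2 groups alone and 0 to 111 in leave-outs. For TSPAN8-low against all ID4-EGFP+, the 0 calls became 5 with the block and 0 to 1 in leave-outs. The cause of these shifts was not tested. The count of genes detected was 31 at 0.5 FPKM or at 1 TPM, 21 at 5 FPKM and 30 to 31 in leave-outs. Depth is unknown, so no counting interval can be given for genes under 2 FPKM.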
